A study of Mus musculus with 6 samples.

Results

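The comparison set all 4 libraries from tumours of ovariectomized hosts against the 2 libraries from hosts for which no ovariectomy was named, to find genes whose level differed from the transgenic tumours whether or not the ovariectomized host had been given progesterone. All 6 libraries of the series took part. The tumours grew under the skin from LLC1 cells, a line derived from a mouse Lewis lung carcinoma, in offspring of C57BL/6 (written CB57BL/6 in the labels) mothers and FVB fathers that carried a beta-hCG transgene. The groups were transgenic hosts with no further treatment named (2 libraries, called transgenic here), ovariectomized transgenic hosts given vehicle (2 libraries, vehicle) and ovariectomized transgenic hosts given progesterone (2 libraries, progesterone). Supplementation lasted 28 days and tumours were collected 30 days after implantation. The transgene is thus common to both sides, and the sources used here give neither its promoter nor its level, nor the age of the hosts. The transgenic hosts were not labelled as given vehicle, so ovariectomy and the supplementation procedure cannot be told apart in this comparison. The labels number the libraries but do not name separate animals, so p-values rest on library-to-library spread, which may be technical.

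Human chorionic gonadotropin is the hormone of early pregnancy, and its beta subunit sets its specificity for the receptor it shares with luteinizing hormone, through which it drives ovarian steroid output. Ovariectomy removes the main source of oestrogen and progesterone together, and supplementation with progesterone returns 1 of these hormones only. Steroid receptors act as transcription factors on target genes in tumour cells, in host stroma and in immune cells, and the counts used here do not separate the RNA of tumour cells from that of host cells. As this is bulk tissue, fewer cells of a type and less RNA per cell cannot be told apart.

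Of 19288 genes in the count table, 13632 passed the filter on low counts. A gene was called outside when its CPM (counts scaled to library size, with TMM) in all 4 ovariectomized libraries lay above, or all lay below, both transgenic libraries. By this rule 920 genes (6.75% of those tested) were above and 921 (6.76%) were below. These 2 shares are nearly equal and describe the order of 6 libraries, with no test, so that meeting the rule does not by itself show a change. Log2 differences between the mean of the vehicle and progesterone groups and the transgenic group are edgeR estimates with their standard error, and a positive value means higher after ovariectomy. With edgeR's quasi-likelihood test and Benjamini-Hochberg adjustment 0 genes (0%) passed an adjusted p of 0.05 and the smallest was 0.817, while 774 genes were under 0.05 before adjustment, where 0.05 of all genes tested is 681.6 (342 higher, 2.51%, and 432 lower, 3.17%). DESeq2 called 40 genes (28 higher, 0.205% of genes tested, and 12 lower, 0.088%; 0.293% in all), of which 36 were outside and 4 overlapped, and limma-voom called 0, with 685 at an unadjusted p under 0.05. Without the filter on low counts edgeR called 11 genes (0.057% of 19288), of which 7 are described below: Scara5, Col23a1, Rrm2, Tpsb2, Sema4c, Stmn4 and Lrp2. With the filter, which the values below use, none of the genes passed the edgeR test, and each value describes these 6 libraries. The median log2 difference over all genes tested was 0.00071.

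Total counts ran from 19526775 to 30083925 per library, where 3 counts equal 0.0997 to 0.154 CPM. Replicates of every group differed far beyond counting error (chi-square over degrees of freedom 38.1 to 94.2). Transgenic library 2 stood apart on the first principal component (31.5% of the variance) and progesterone library 2 on the second (27.4%). Over genes, the rank correlation of transgenic library 1 with the vehicle libraries was 0.985 and 0.987, above its correlation of 0.969 with transgenic library 2. The surfactant and club cell genes Sftpc, Sftpd and Scgb1a1 had 2 counts each over all 6 libraries. Of the 12 genes of the lung epithelial list, 9 were in the count table and 4 passed the filter. These were Abca3 and Hopx, detected in every library, Napsa (1.64 to 4.48 CPM) and Foxa2 (1.54 to 8.13 CPM). Summed levels of red blood cell genes ranged from 65.7 to 2827 CPM in the transgenic and from 86.4 to 2503 CPM in the ovariectomized libraries.

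Most differences on which the 4 ovariectomized libraries lined up were small. The median gap, the distance between the nearest libraries of the 2 sides in log2 CPM with a prior count of 2, was 0.093 for genes above and 0.082 for genes below. A gap of more than 1 log2 unit, or 2-fold, was found for 10 genes above (0.0734% of genes tested) and 2 genes below (0.0147%). The genes above were Scara5, Dmp1, Col23a1, Itgb4, Plet1, Col24a1, Syt8, Xlr5b, Eln and Tspan11, and the genes below were Pzp and Gm8251, both under 1 CPM in every library, as was Syt8; Xlr5b (0.148 and 0.211 against 0.530 to 1.23) and Dmp1 (0.185 and 0.0421 against 0.618 to 3.60) were also low. Among genes above, 695 (75.5%) differed between progesterone and vehicle by no more than 0.25 log2 units, as did 697 (75.7%) of the genes below and 6662 (56.5%) of the 11791 genes that overlapped. Since genes with a wide spread among the 4 libraries seldom met the rule, this share describes the selection. The progesterone level lay nearer the transgenic level than the vehicle level did, by more than 0.25, in 101 genes above and 132 below, and farther away by more than 0.25 in 124 and 92.

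**Figure D1:**
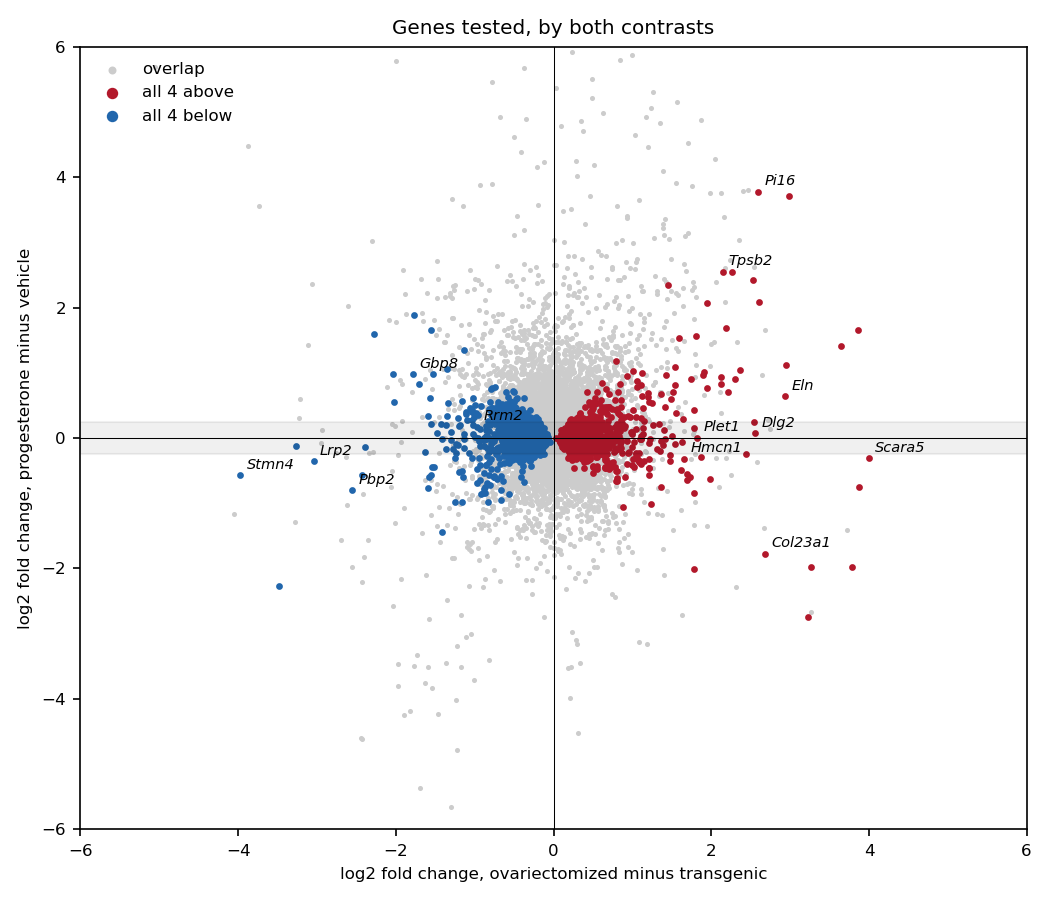
Log2 difference between ovariectomized and transgenic tumours (x axis) against that between progesterone and vehicle tumours (y axis) for the genes tested; 13 genes lie beyond the axes. Red points are the 920 genes above and blue points the 921 below both transgenic libraries, grey points overlap, and the shaded band marks 0.25 log2 units either side of no difference between progesterone and vehicle. Scara5 sits far to the right just below the band, while Tpsb2 and Col23a1 lie well above and below it.

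Iron-handling genes held the widest gap in the data. Scara5, which encodes a scavenger receptor that binds ferritin and delivers iron into cells (ENSMUSG00000022032, chr14:65666403-65764826 in GRCm38), stood at 1.44 and 0.421 CPM in the transgenic libraries, 16.2 and 17.4 with vehicle and 12 and 15.1 with progesterone. The lowest ovariectomized library was 7.91-fold above the highest transgenic one on the scale with the prior count, and the log2 difference was 4.0 ± 0.53 (SE; edgeR adjusted p = 0.817, DESeq2 adjusted p = 3.7e-14). Progesterone and vehicle tumours differed by -0.31 log2 units (95% interval -1.43 to 0.81). Leaving out transgenic library 2 gave 3.38 and leaving out transgenic library 1 gave 5.15. Scara5 is also expressed by fibroblasts of vessel sheaths. The summed level of the 16 fibroblast markers was 2289 and 8020 CPM in the transgenic and 5624 to 12007 CPM in the ovariectomized libraries, which overlapped. Most of this sum was Col3a1, with 1414 and 6166 CPM in the transgenic and 3636 to 8604 CPM in the ovariectomized libraries. The part of these cells in the Scara5 difference was not tested.

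Steap3, a reductase that turns ferric into ferrous iron after uptake, stood at 30.1 and 28.4 CPM in the transgenic libraries, 57.0 and 40.9 with vehicle and 61.0 and 54.5 with progesterone, a log2 difference of 0.86 ± 0.19. Tfrc, the transferrin receptor through which most cells take up iron, went the other way, at 130 and 191 CPM in the transgenic libraries, 107 and 73.4 with vehicle and 116 and 104 with progesterone (-0.68 ± 0.21). Ferritin light chain Ftl1 was above by a narrow gap (0.04 log2 units, difference 0.26 ± 0.15). Of 19 tested genes of iron handling and antioxidant defence, 5 were above (26.3%, against 6.75% of all genes) and 3 below (15.8%, against 6.76%), and the list's median log2 difference was 0.19 (0.04 without progesterone library 1). Besides those named, Blvrb, a biliverdin reductase, was above, with its nearest libraries equal to 3 digits. The other 3 concern oxidative balance. Txnip, which binds and inhibits thioredoxin, had 114 and 95 CPM in transgenic tumours, 121 and 171 with vehicle and 237 and 201 with progesterone. Gclm and Gclc, the subunits of the enzyme that starts glutathione synthesis, were both below, with log2 differences of -0.46 ± 0.15 and -0.22 ± 0.16. Without transgenic library 1, 13 of the 19 were outside, and without transgenic library 2, 12 were, against 49.8% and 38.7% of all genes.

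Several genes with wide gaps encode matrix or surface proteins. Itgb4, the integrin beta chain that anchors epithelial cells to laminin in hemidesmosomes (chr11:115974709-116008412), stood at 5.70 and 4.0 CPM in the transgenic libraries, 17.3 and 13.6 with vehicle and 15.4 and 14.0 with progesterone. All 4 ovariectomized libraries lay close together and the lowest was 2.36-fold above the nearest transgenic one, with a log2 difference of 1.63 ± 0.28 and a progesterone minus vehicle difference of -0.07 (95% interval -0.77 to 0.64). Col24a1, a fibrillar collagen (chr3:145292472-145552011), had 4.59 and 3.75 CPM against 12 and 10.3 with vehicle and 10.3 and 11.7 with progesterone (1.41 ± 0.28, with progesterone minus vehicle -0.02, 95% interval -0.72 to 0.68). A progesterone minus vehicle difference within 0.25 was among the grounds for naming Itgb4, Col24a1 and Plet1, so that closeness describes the choice. Plet1, a surface protein of placental and other epithelia (chr9:50494525-50505482), had 3.37 and 2.74 CPM in transgenic tumours, 11.5 and 10.2 with vehicle and 14.0 and 7.74 with progesterone, and differed by 1.82 ± 0.36.

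Col23a1, a transmembrane collagen (chr11:51289920-51583918), was above in all 4 libraries but at unequal levels: 2.0 and 3.37 CPM in transgenic tumours, 44.6 and 18.9 with vehicle and 10.3 and 8.32 with progesterone. Its log2 difference from the transgenic tumours was 3.57 with vehicle and 1.79 with progesterone, which share the same transgenic libraries, and progesterone minus vehicle was -1.77. Eln, which encodes elastin, spread widely, with 1.44 and 0.927 CPM in transgenic tumours, 3.05 and 11.7 with vehicle and 5.87 and 17.0 with progesterone. Col18a1, the basement membrane collagen whose end fragment is endostatin, was abundant and differed by less: 678 and 692 CPM against 1021, 922, 994 and 904 (0.49 ± 0.14). Hmcn1, an extracellular hemicentin, had 3.52 and 3.88 CPM in the transgenic and 7.69 to 15.0 in the ovariectomized libraries. Of 25 tested collagens and matrix proteins, 4 were above (16.0%, against 6.75% of all genes, namely Col23a1, Eln, Col18a1 and Thbs2) and 0 below. The median log2 difference of 0.49 became 0.05 without progesterone library 2 and 0.29 without transgenic library 2. Of 25 integrins and adhesion genes 2 were above (8.0%, near the share of all genes) and 0 below, 16 had a negative difference and the median was -0.12, which became 0.15 without transgenic library 2. The fibroblast list had 2 of 16 above (12.5%, against 6.75% of all genes), Cd34 and Pi16, and 0 below. The Pi16 values rest on progesterone library 2, which held 94.2 CPM against 3.40 to 3.71 in the other ovariectomized libraries. The log2 difference of Pi16 went from 2.59 to 0.69 without that library.

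A few guidance molecules were above. Sema4c, a membrane semaphorin that signals through plexin B2 (chr1:36548639-36558349), had 110 and 77.5 CPM in transgenic tumours, 196 and 234 with vehicle and 182 and 167 with progesterone (1.05 ± 0.19). Ntn1, the secreted guidance cue netrin 1, had 380 and 405 CPM against 561 and 597 with vehicle and 824 and 570 with progesterone (0.70 ± 0.19). Nrp2, a coreceptor of semaphorins and of VEGF-C, was above by 0.10 log2 units at the nearest libraries. These 3 of 27 axon guidance genes tested were above (11.1%, against 6.75% of all genes) and 0 were below, and the median of 0.11 became -0.0045 without progesterone library 2, so the list as a whole did not stand out. Other genes above at small spread were Rgl1, an exchange factor of the Ral GTPases, and Nceh1, a cholesterol ester hydrolase. Rgl1 had 86.8 and 74.8 CPM against 121 to 140 (0.69 ± 0.14). Nceh1 had 73.8 and 65.1 CPM against 101 to 124 (0.64 ± 0.14). Psd3, an exchange factor of the ARF6 GTPase, and Lrp5, a Wnt coreceptor, were above but higher with vehicle than with progesterone. Psd3 had 86.5 and 77.6 CPM in transgenic tumours, 162 and 136 with vehicle and 113 and 118 with progesterone (0.68 ± 0.14). Lrp5 had 105 and 107, 189 and 177, and 133 and 130 CPM (0.55 ± 0.12). Progesterone minus vehicle was -0.37 for Psd3 and -0.48 for Lrp5. The Lrp5 log2 difference from transgenic was 0.79 with vehicle and 0.31 with progesterone. Dlg2, a scaffold protein of synapses, had 2.67 and 2.15 CPM in the transgenic and 4.72 to 22.9 in the ovariectomized libraries, where replicate 1 of each group was the higher. Cspg4, the NG2 proteoglycan of pericytes, had 4.37 and 3.62 CPM in the transgenic and 6.14 to 11.4 in the ovariectomized libraries (1.19 ± 0.30). It was the 1 of 9 pericyte and smooth muscle genes outside (11.1%, against 13.5% of all genes). A negative difference was found in 4 of the 9, such as Kcnj8 (-0.30 ± 0.39) and Des (-0.63 ± 0.48).

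Among mast cell and basophil genes, 3 of 11 met the rule, by a narrow margin with vehicle and a wide one with progesterone. Tpsb2, a mast cell tryptase, had 2.0 and 3.92 CPM in transgenic tumours, 5.11 and 5.67 with vehicle and 24.1 and 39.3 with progesterone, and the tryptase Tpsab1 had 1.67 and 5.48, 7.20 and 6.15, and 29.3 and 27.1. Vehicle lay just outside the transgenic range and progesterone far outside it. The 2 tryptases are close paralogs and can share reads, so their separate values are uncertain. Ms4a2, the beta chain of the IgE receptor, had 0.185 and 0.211 CPM in the transgenic and 0.265 to 2.90 in the ovariectomized libraries. Of 11 mast cell and basophil genes tested, 3 were above (27.3%, against 6.75% of all genes) and 0 below. The list's median log2 difference from transgenic was 0.46 with vehicle and 3.42 with progesterone. In the pooled comparison 8 had a positive and 3 a negative difference. Mcpt8, for example, had 0.592 and 3.41 CPM in transgenic tumours, 4.01 and 2.23 with vehicle and 0.0386 and 0.289 with progesterone.

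**Figure D2:**
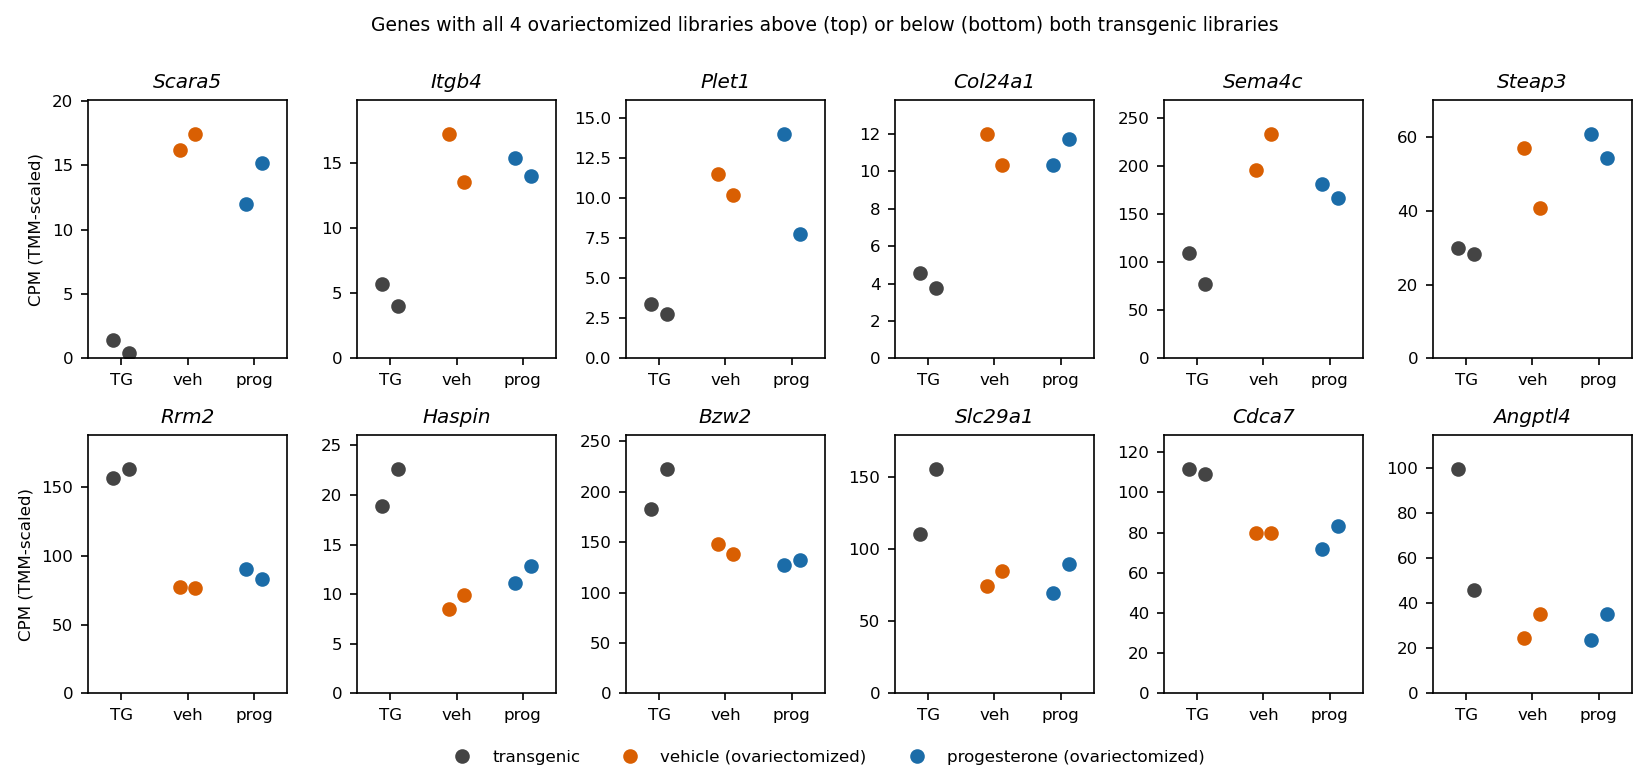
CPM of 12 genes in each library (transgenic, TG; vehicle, veh; progesterone, prog), 1 point per library and each axis from 0. Top, genes with all 4 ovariectomized libraries above both transgenic libraries, such as Scara5 at 12 to 17.4 against 0.421 and 1.44; bottom, genes below, such as Rrm2 at 76.5 to 90.6 against 157 and 163.

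Genes of DNA synthesis were the main group below. Proliferating cells copy their DNA in S phase with the helicase, polymerase and nucleotide supply genes that E2F factors switch on, and divide with mitotic genes that are mostly switched on later through CCAAT boxes and the cell cycle homology region (CHR). The promoters of 4 genes that were below illustrate both kinds of element: Rrm2, Pclaf, Cks1b and Ccnb2. They are RefSeq windows in GRCm38.p6 from 250 bases before to 50 bases after the gene start, 300 bases in all, read 5′ to 3′ on the gene's strand: Rrm2 at chr12:24708004-24708303, plus strand; Pclaf at chr9:65890073-65890372, plus strand; Cks1b at chr3:89418242-89418541, minus strand; Ccnb2 at chr9:70421505-70421804, minus strand. Capitals mark matches, on either strand, to CCAAT, to the CHR as TTTGAA and to the E2F site as TTTGGCGC or TTTCCCGC. Of the windows shown, Pclaf alone held an E2F match. They were picked as examples from a larger set of genes below. In that set the windows of Birc5 and Mybl2 held no match, and those of Mcm10, Fen1 and Pcna held no E2F match.
Rrm2: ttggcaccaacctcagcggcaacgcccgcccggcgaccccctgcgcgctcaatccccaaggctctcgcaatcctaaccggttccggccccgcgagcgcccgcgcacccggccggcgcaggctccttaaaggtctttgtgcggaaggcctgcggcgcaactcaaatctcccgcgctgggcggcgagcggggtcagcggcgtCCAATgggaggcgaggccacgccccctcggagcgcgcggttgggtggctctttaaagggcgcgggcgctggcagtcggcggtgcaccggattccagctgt
Pclaf: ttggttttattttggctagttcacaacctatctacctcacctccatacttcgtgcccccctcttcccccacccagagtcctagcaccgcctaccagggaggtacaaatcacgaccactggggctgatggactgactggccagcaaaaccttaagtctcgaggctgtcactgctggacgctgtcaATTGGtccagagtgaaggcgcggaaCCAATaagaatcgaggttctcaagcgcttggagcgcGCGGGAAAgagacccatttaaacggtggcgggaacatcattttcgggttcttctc
Cks1b: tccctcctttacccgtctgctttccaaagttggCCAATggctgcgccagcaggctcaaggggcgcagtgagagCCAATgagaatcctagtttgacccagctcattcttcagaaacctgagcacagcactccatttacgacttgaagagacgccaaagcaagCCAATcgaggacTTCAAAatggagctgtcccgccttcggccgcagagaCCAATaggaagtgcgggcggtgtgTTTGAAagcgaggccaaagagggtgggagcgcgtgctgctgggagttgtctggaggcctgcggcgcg
Ccnb2: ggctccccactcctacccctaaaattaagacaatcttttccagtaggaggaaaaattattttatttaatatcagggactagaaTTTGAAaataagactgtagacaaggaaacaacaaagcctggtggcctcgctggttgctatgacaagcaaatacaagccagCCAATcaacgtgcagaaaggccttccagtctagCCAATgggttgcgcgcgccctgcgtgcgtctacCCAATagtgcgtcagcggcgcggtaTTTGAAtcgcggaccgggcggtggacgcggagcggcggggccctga

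Rrm2 encodes the regulated subunit of ribonucleotide reductase, which makes the deoxynucleotides for DNA synthesis (ENSMUSG00000020649, chr12:24708241-24714146). Its level was 157 and 163 CPM in the transgenic libraries, 77.7 and 76.5 with vehicle and 90.6 and 83.3 with progesterone. The 2 sides were 1.73-fold apart at their nearest libraries while each side was tight. The log2 difference was -0.97 ± 0.12 (edgeR adjusted p = 0.817, DESeq2 adjusted p = 6.4e-10) and had the smallest unadjusted p of all genes. Progesterone minus vehicle was 0.17 (95% interval -0.15 to 0.50), and leaving out any 1 library kept the difference between -1.0 and -0.94. Pclaf, a partner of the PCNA clamp, had 110 and 123 CPM against 44.7 and 65.1 with vehicle and 71.7 and 89.8 with progesterone (-0.81 ± 0.18). Mcm10, which helps start replication forks, had 40.7 and 56.3 CPM against 23.9 and 26.3 and 32.4 and 32.9 (-0.76 ± 0.18; -0.51 without transgenic library 2). In Pclaf and Mcm10 both progesterone libraries lay between the vehicle and the transgenic libraries.

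Of 28 tested genes of DNA replication and S phase, 13 were below (46.4%, against 6.76% of all genes) and 0 above, and the median log2 difference was -0.45. The other 10 below were Gins1, Cdc6, Mcm5, Prim1, Ccne2, Fen1, Pcna, Tyms, Mcm3 and Rfc3, which cover origin licensing, the replicative helicase, primase, the sliding clamp and its loader, flap removal, cyclin E2 and thymidylate synthase. All 28 had a lower mean in vehicle than in transgenic tumours and 26 had a lower mean in progesterone tumours, by a median of -0.64 and -0.22, with the same transgenic libraries in both. All 28 had a positive progesterone minus vehicle difference, with a median of 0.37. The list's mean log2 level, centred on all libraries, was 0.19 and 0.40 in transgenic tumours, -0.42 and -0.27 with vehicle and 0.01 and 0.08 with progesterone, so the 4 ovariectomized libraries lay below both transgenic ones. Without transgenic library 2, 14 of 28 were below (50%, against 18.4% of all genes), and without transgenic library 1, 26 were (92.9%, against 25.3%).

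Genes of mitosis and G2 phase were lower by a larger median and separated less cleanly. Of 25 tested, 7 were below (28.0%, against 6.76% of all genes) and 0 above, and the median log2 difference was -0.58, with -0.82 for vehicle and -0.31 for progesterone. Birc5, or survivin, a subunit of the chromosomal passenger complex, had 77.2 and 89.0 CPM in transgenic tumours, 40.6 and 49.5 with vehicle and 62.0 and 63.6 with progesterone (-0.64 ± 0.14). Ccna2, or cyclin A2, had 154 and 167 CPM against 71.0 and 91.2 and 104 and 134 (-0.71 ± 0.16). Aurkb, the kinase of the same passenger complex, had 73.2 and 96.2 CPM against 48.3 to 65.6 (-0.59 ± 0.15; -0.38 without transgenic library 2), and Ccnb2, Ube2c, Ccnb1 and Cdk1 were also below. Transgenic library 1 was lower than transgenic library 2 on this list (mean centred log2 level 0.09 and 0.58), and progesterone library 2 stood at 0.16, so the list means of the 2 sides overlapped. Without transgenic library 2, 8 of 25 were below (32%, against 18.4% of all genes) with a median of -0.23; without transgenic library 1, 23 were (92.0%, against 25.3%) with a median of -0.86; and without progesterone library 2, 11 were (44.0%, against 10.9% of all genes).

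Further dividing-cell genes outside these lists were below. Haspin, a kinase that marks histone H3 at centromeres and lies within the gene Itgae, so that its count is uncertain where strand was not used, had 18.9 and 22.6 CPM in transgenic tumours, 8.47 and 9.91 with vehicle and 11.1 and 12.9 with progesterone (-0.98 ± 0.21). Cks1b, a subunit of cyclin-dependent kinases, had 131 and 122 CPM against 76.8 and 79.4 and 104 and 102 (-0.49 ± 0.12). Mybl2, the B-Myb transcription factor of late cell cycle genes, had 69.9 and 97.5 CPM against 45.5 to 59.8 (-0.71 ± 0.17; -0.45 without transgenic library 2). Cdca7, a chromatin protein of S phase, had 112 and 109 CPM against 80.0, 79.9, 71.7 and 83.1 (-0.49 ± 0.12, with progesterone minus vehicle -0.05, 95% interval -0.39 to 0.30).

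**Figure D3:**
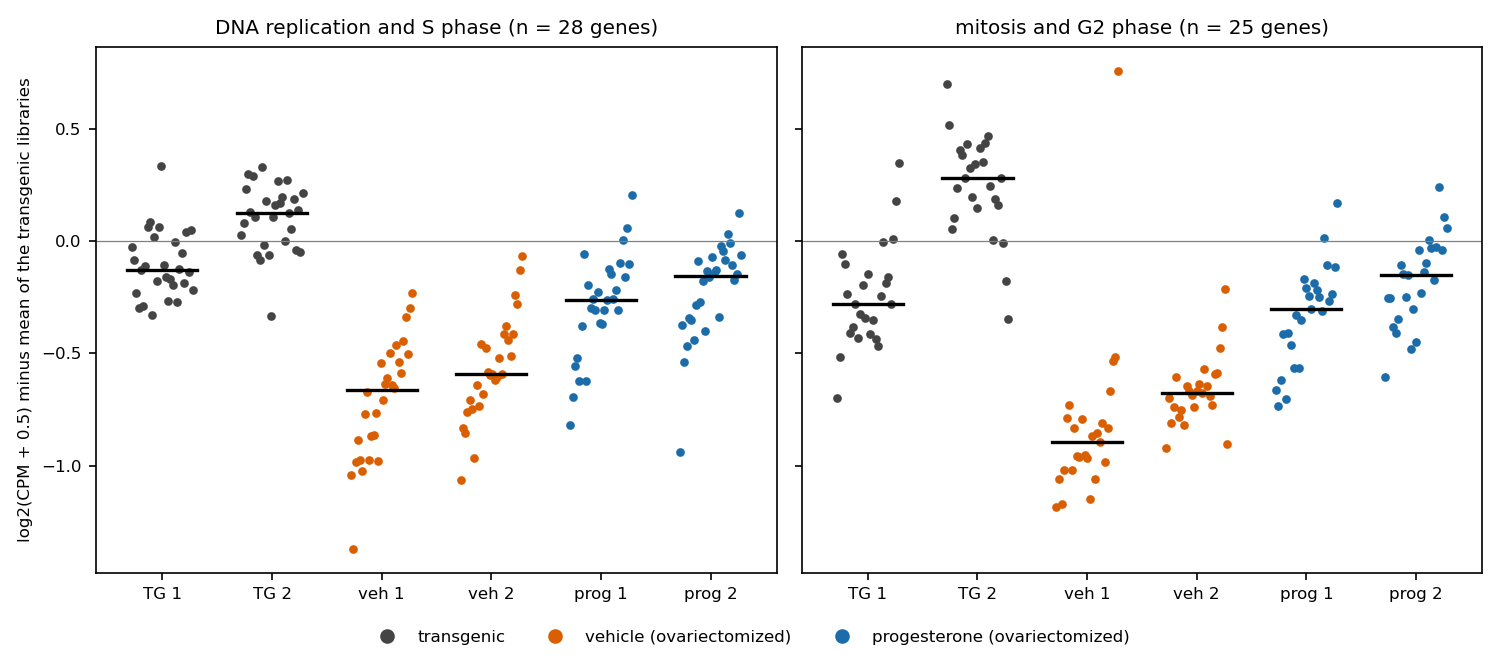
Log2(CPM + 0.5) of each gene minus its mean in the 2 transgenic libraries, by library, for 28 genes of DNA replication and S phase (left) and 25 of mitosis and G2 phase (right). Points are genes and black lines are medians; vehicle libraries lie lowest, progesterone libraries lie between them and the transgenic mean, and on the right transgenic library 1 lies near the progesterone libraries.

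The promoter elements were shared out unequally between the lists. Of 13628 gene symbols tested, 10519 had a RefSeq promoter window that was used, and 12% of these held the CHR, 38.8% a CCAAT box and 2.94% an E2F site. Among 20 mitosis genes with a window, 14 (70.0%) held the CHR, 17 (85.0%) a CCAAT box and 0 an E2F site. Among 22 S phase genes the counts were 3 (13.6%), 15 (68.2%) and 9 (40.9%). Over all genes below with a window (703) the shares were 14.5%, 43.4% and 3.98%, and over all genes above (739) they were 8.80%, 38.4% and 1.89%. The consensus palindrome of the oestrogen response element was found in 1 window of all genes and in 0 of the genes outside. The progesterone and glucocorticoid response element, as a consensus palindrome, was found in 0.304% of all windows, in 1 of a gene above and in 4 of genes below. These are letter matches in a short window and not measured binding sites.

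Genes of ribosome production and other MYC targets, kept as 1 list, were a second group below, by small amounts. Of 22 tested, 7 were below (31.8%, against 6.76% of all genes) and 0 above, with a median log2 difference of -0.16 (-0.30 without transgenic library 2 and -0.10 without progesterone library 2), and the progesterone minus vehicle median was 0.02. Polr1b, a subunit of RNA polymerase I, had 90.0 and 88.2 CPM in transgenic tumours, 76.4 and 69.0 with vehicle and 67.8 and 60.1 with progesterone (-0.39 ± 0.13). Rrp9, a factor of pre-rRNA processing, had 101 and 104 CPM against 61.6 to 85.5 (-0.47 ± 0.17), and Wdr43, which acts early in small subunit assembly, had 290 and 282 against 220 to 239 (-0.30 ± 0.13). The other 4 were Dkc1, Npm1, Nop56 and Nolc1. The list's mean centred log2 level was 0.196 and 0.035 in transgenic tumours and 0.081 in progesterone library 1, so the list means of the 2 sides overlapped. Without transgenic library 2, 13 were below (59.1%, against 18.4% of all genes), and without progesterone library 1, 11 were (50%, against 10.2%). Without transgenic library 1, 8 were below (36.4%, against 25.3%) and 2 above. A chosen list of 27 cytosolic ribosomal protein genes had 0 members outside (against 13.5% of all genes). Its median was 0.03, which turned to -0.10 without transgenic library 2 and to 0.18 without transgenic library 1. In the latter case 13 of the 27 were above (48.1%, against 24.5% of all genes) and 1 below. Rpl29, a ribosomal protein gene not in that list, was below, with 728 and 659 CPM in transgenic tumours, 440 and 514 with vehicle and 438 and 333 with progesterone (-0.69 ± 0.17; DESeq2 adjusted p = 0.033).

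Among single genes below, Bzw2, Slc29a1, Dlx2 and Angptl4 were named in part because progesterone and vehicle differed by no more than 0.25 log2 units. That closeness describes the choice. Bzw2, a regulator of translation start, had 183 and 223 CPM in transgenic tumours, 148 and 138 with vehicle and 127 and 132 with progesterone (-0.57 ± 0.13; progesterone minus vehicle -0.14, 95% interval -0.52 to 0.23). Slc29a1, the nucleoside transporter ENT1, had 111 and 156 CPM against 74.3 and 84.8 and 69.9 and 89.7 (-0.75 ± 0.18; -0.48 without transgenic library 2). Dlx2, a homeobox transcription factor, had 21.9 and 32.2 CPM against 12.8 to 15.7 (-0.93 ± 0.22). Angptl4, a secreted inhibitor of lipoprotein lipase, had 99.6 and 45.9 CPM against 24.6 and 35.2 and 23.7 and 35.1, a log2 difference of -1.30 ± 0.33 that became -0.63 without transgenic library 1. Plaur, the urokinase receptor, had 178 and 157 CPM against 133 and 105 and 113 and 85.1 (-0.63 ± 0.17). Hbegf, a ligand of the EGF receptor, met the rule in another way: 80.8 and 84.8 CPM in transgenic tumours, 76.1 and 75.2 with vehicle and 42.8 and 40.3 with progesterone, so nearly all of its difference lay in the progesterone tumours. Phgdh and Psat1, enzymes of serine synthesis, were below with log2 differences of -0.47 ± 0.14 and -0.30 ± 0.15, which became -0.28 for Phgdh without transgenic library 2 and -0.17 for Psat1 without transgenic library 1.

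Immune genes below rested in part on transgenic library 2. Gbp8, an interferon-induced guanylate-binding protein, had 4.74 and 8.34 CPM in transgenic tumours, 1.13 and 1.59 with vehicle and 2.78 and 2.57 with progesterone (-1.78 ± 0.38). Gbp3 and Irgm1, further interferon-induced GTPases, differed by -1.34 ± 0.39 and -0.83 ± 0.33, and by -0.51 and -0.33 without transgenic library 2. Of 27 tested interferon response genes, 4 were below (14.8%, against 6.76% of all genes) and 0 above, with a median of -0.17. Without transgenic library 2, 4 were below and 6 above (14.8% and 22.2%, against 18.4% and 20.3% of all genes), and the median was -0.10; it was -0.41 without transgenic library 1 and -0.09 without vehicle library 2. Mgl2, a lectin of macrophages and dendritic cells, had 4.96 and 10.0 CPM against 1.48 to 3.97 (-1.71 ± 0.43; -1.12 without that library). The summed level of 16 macrophage and monocyte markers was 1399 and 2921 CPM in the transgenic and 1864 to 3075 in the ovariectomized libraries. Of these 16, 0 were outside (against 13.5% of all genes). Tcf7, a transcription factor of naive T cells and of Wnt signalling, had 7.96 and 6.79 CPM against 4.67 and 4.88 with vehicle and 1.97 and 3.93 with progesterone (-0.97 ± 0.36). The 12 T cell markers, of which 7 passed the filter, summed to 3.52 and 14.5 CPM in the transgenic and 1.91 to 7.49 in the ovariectomized libraries. The part of these cells in the single-gene differences was not tested.

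Some of the steepest genes below were much higher in transgenic library 2 than in transgenic library 1. Stmn4, a neuronal tubulin-binding stathmin, had 0.815 and 14.0 CPM in the transgenic and 0.309 to 0.742 in the ovariectomized libraries, and its log2 difference of -3.97 ± 0.94 became -0.80 without transgenic library 2. Lrp2, the endocytic receptor megalin, had 5.89 and 60.1 CPM against 2.36 to 5.80, and -3.04 ± 0.77 became -0.56. Pbp2 had 3.11 and 15.5 CPM against 0.811 to 2.20 (-2.56 ± 0.61, then -0.98), and Pot1b, a telomere end-binding protein, had 2.41 and 8.68 against 1.61 to 2.20 (-1.60 ± 0.52, then -0.40). For Stmn4, Lrp2 and Pot1b the highest ovariectomized library was near transgenic library 1. Pbp2 had a wider gap, of 0.49 log2 units.

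Smaller or looser differences completed the named genes. Hgf, the ligand of the MET receptor, had 11.7 and 3.54 CPM in transgenic tumours, 11.9 and 36.3 with vehicle and 22.5 and 15.3 with progesterone, and its log2 difference of 1.48 ± 0.61 became 0.87 without transgenic library 2. Adamts1, a protease of matrix proteoglycans, Itga2, a collagen-binding integrin chain, and Mdm2, the p53 ubiquitin ligase, were above with differences of 0.84 ± 0.32, 0.99 ± 0.42 and 0.52 ± 0.21, which became 0.48, 0.50 and 0.25 without transgenic library 2. Lipid genes above were Scd2, a fatty acid desaturase (438 and 397 CPM against 482 to 577; 0.35 ± 0.14), and Dgat1, which makes triglycerides (0.39 ± 0.19; 0.22 without transgenic library 2); of 24 fatty acid genes 4 were outside (16.7%, against 13.5% of all genes), among them these and Angptl4, which was below. Below were the endothelial genes Emcn and Egfl7, 2 of 12 endothelial markers (16.7%, against 6.76% of all genes), by -0.63 ± 0.41 and -0.29 ± 0.46, and the notch ligand Dll4 by -0.66 ± 0.31. These 3 values became -0.35, -0.08 and -0.44 without progesterone library 1 and -1.07, -0.58 and -0.99 without progesterone library 2. The summed endothelial markers were 384 and 411 CPM in transgenic and 239 to 387 in ovariectomized tumours. Of 13 genes of mitochondrial DNA 1 was below (7.69%, near the 6.76% of all genes) and 0 above. Without progesterone library 2, 8 were below (61.5%, against 10.9% of all genes). The 1 below with all libraries was mt-Nd1, a subunit of complex I. It had 1916 and 1924 CPM against 1236 and 1132 with vehicle and 1406 and 1788 with progesterone (-0.48 ± 0.15). Among further members of lists that met the rule by gaps of 0.29 log2 units or less were Ccl11, Apod, Cyp11a1, Ncr1, Dbp and Sdhc above and Hsp90aa1, Ier2, Tnf, Batf3 and Cxcl10 below.

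Some lists differed in median from transgenic in the vehicle tumours yet had no member outside. The 28 genes of hypoxia and glycolysis had a median log2 difference of 0.62 with vehicle and -0.02 with progesterone, and all 28 were lower with progesterone than with vehicle; Slc2a1, the glucose transporter GLUT1, had 402 and 256 CPM in transgenic tumours, 919 and 796 with vehicle and 630 and 368 with progesterone. The 19 genes of cholesterol synthesis had medians of 0.43 and -0.22, and all 19 were lower with progesterone than with vehicle. Both lists had 0 of their members outside (against 13.5% of all genes). The pooled median of the hypoxia list was 0.28 (0.11 without transgenic library 2 and 0.39 without transgenic library 1). Without transgenic library 1, 12 of its 28 genes were above (42.9%, against 24.5% of all genes). The pooled median of the cholesterol list was 0.08 (-0.09 without vehicle library 1). The 15 genes of MHC class I presentation had medians of -0.59 and 0.01 and 0 members outside (against 13.5% of all genes). Their pooled median of -0.26 depended on the transgenic libraries: it became 0.34 without transgenic library 2 and -0.75 without transgenic library 1.

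**Figure D4:**
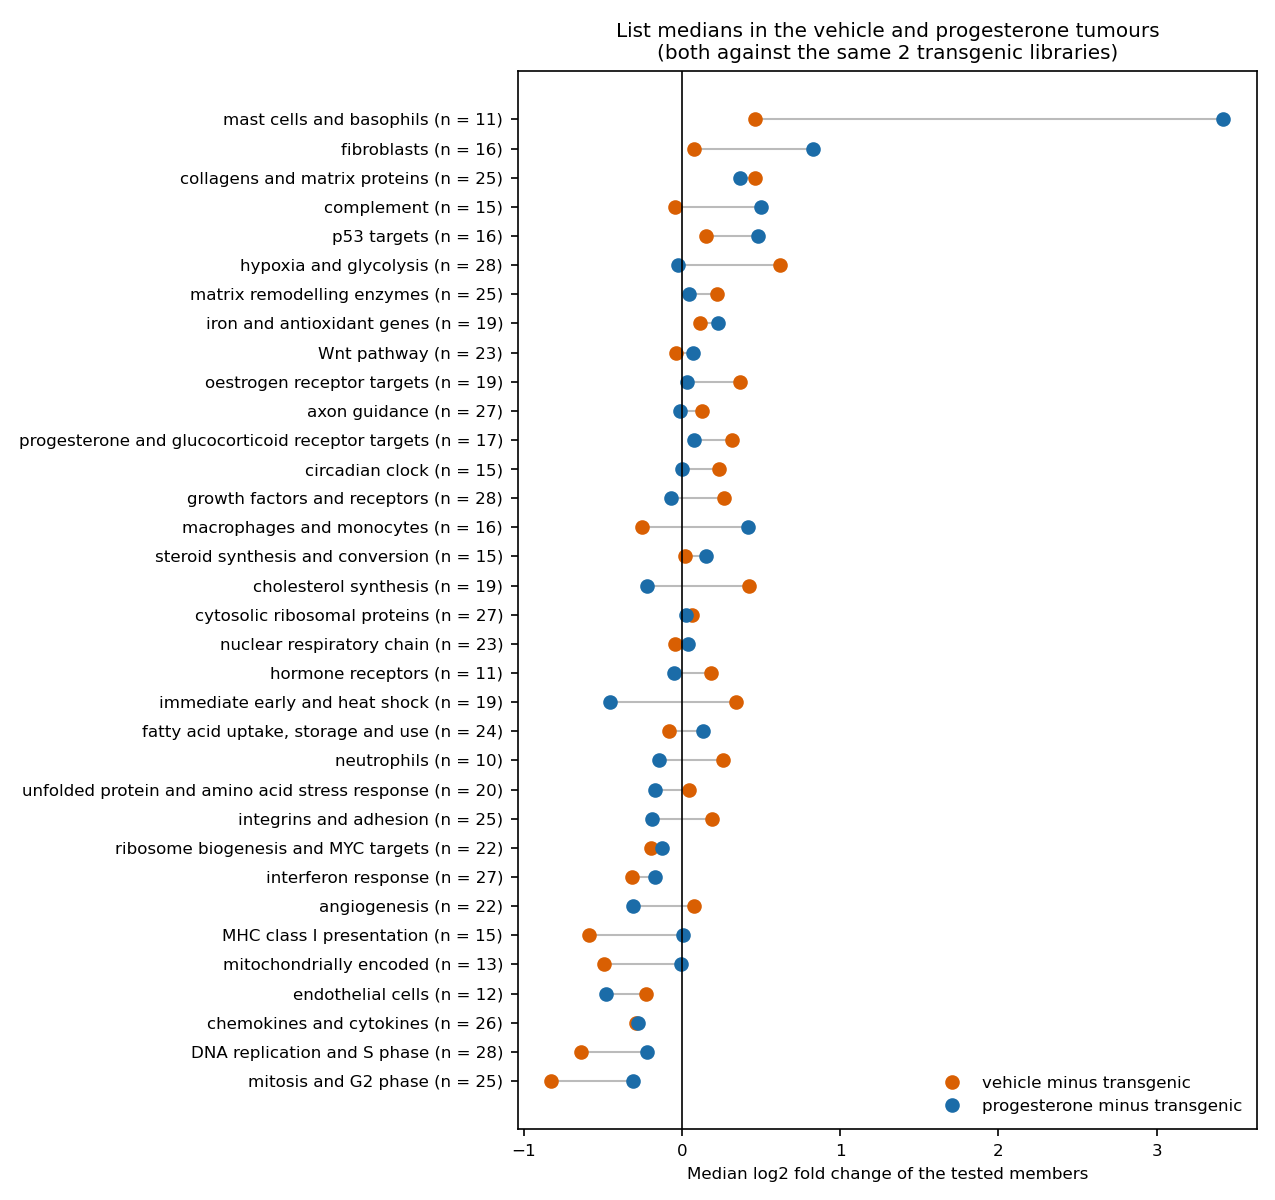
Median log2 difference from the transgenic libraries of each list with at least 10 tested genes, for vehicle (orange) and progesterone (blue) tumours, ordered by the median of the pooled comparison. The same 2 transgenic libraries serve both values; ribosome biogenesis, DNA replication and mitosis have both points below 0, while hypoxia and cholesterol synthesis have them on opposite sides.

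**Figure D5:**
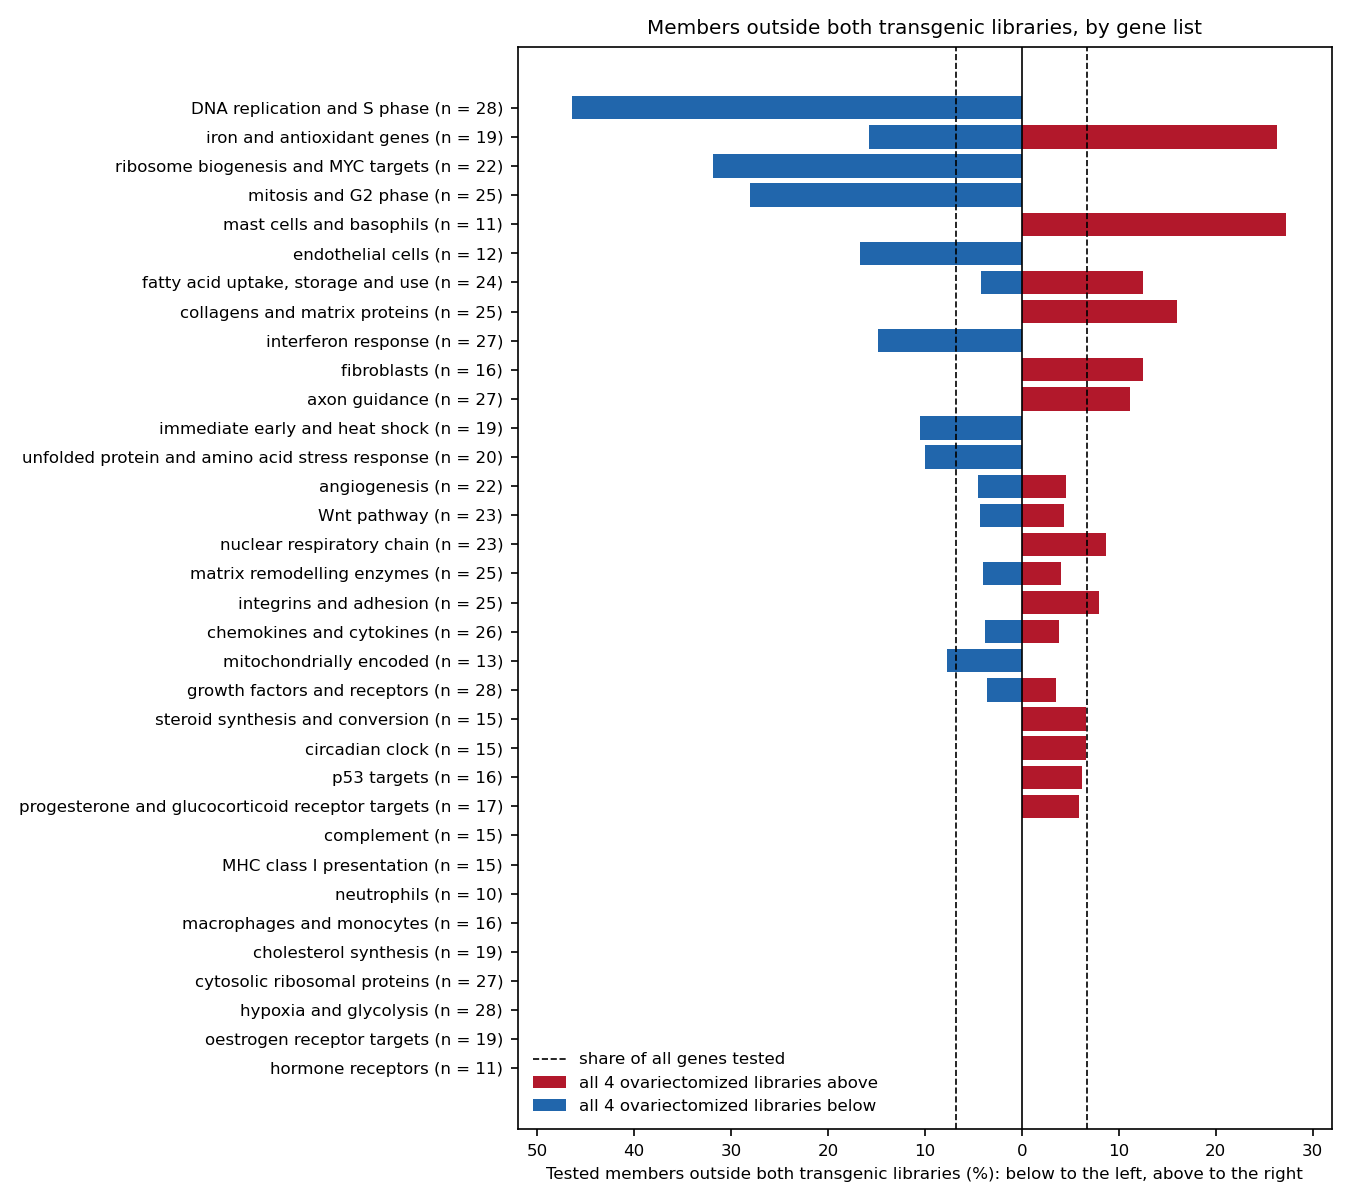
Share of tested members with all 4 ovariectomized libraries above (red, right) or below (blue, left) both transgenic libraries, for each list with at least 10 tested genes. Dashed lines mark 6.75% and 6.76%, the shares of all genes tested; DNA replication and S phase reaches 46.4% below, and hormone receptors and oestrogen receptor targets have 0 on either side.

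Few hormone receptors or target genes of the oestrogen, progesterone and glucocorticoid receptors were outside with all 6 libraries. Of 18 receptor genes in the table, 11 passed the filter, 0 were outside (against 13.5% of all genes), and the median log2 difference was 0.00. The nuclear progesterone receptor gene Pgr had 5 counts over all 6 libraries and the luteinizing hormone receptor gene Lhcgr, the receptor of hCG, had 3. The oestrogen receptor gene Esr1 had 18.7 and 3.16 CPM in transgenic tumours, 5.66 and 23.6 with vehicle and 6.61 and 13.4 with progesterone, with replicates of a group further apart than the groups. Esr2 had 1.67 and 2.28 CPM against 1.20 to 2.32. The glucocorticoid receptor gene Nr3c1 was level, with 128 and 157 CPM against 119 to 170 (0.00 ± 0.15). The membrane progesterone-binding genes Pgrmc1, Pgrmc2, Paqr7 and Paqr8 differed by 0.00 ± 0.20, -0.08 ± 0.13, 0.12 ± 0.26 and -0.06 ± 0.32, and Gper1, Ghr and Nr3c2 by -0.05 ± 0.71, 0.20 ± 0.32 and -0.04 ± 0.79.

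Of 19 tested oestrogen receptor targets 0 were outside (against 13.5%), with a median of 0.15. The count depended on the transgenic libraries: without transgenic library 1, 8 were above (42.1%, against 24.5% of all genes) with a median of 0.55, while without transgenic library 2, 4 were above (21.1%, against 20.3%) with a median of 0.02. Greb1, an oestrogen-induced cofactor of the oestrogen receptor, had 7.41 and 67.5 CPM in transgenic tumours, 18.7 and 4.29 with vehicle and 2.51 and 11.3 with progesterone, a log2 difference of -2.07 ± 0.92, with transgenic library 2 far above the others. Of 17 progesterone and glucocorticoid receptor targets 1 was above (5.88%, against 6.75% of all genes), Tnfsf11, the RANK ligand that progesterone induces in mammary epithelium, with 0.630 and 0.421 CPM in transgenic tumours, 0.858 and 1.96 with vehicle and 2.51 and 3.14 with progesterone (1.91 ± 0.57). Without transgenic library 1, 10 of the 17 were above (58.8%, against 24.5% of all genes) and the median went from 0.10 to 0.68, and without transgenic library 2, 3 were above (17.6%, against 20.3%) and the median was -0.08. Klf9, a progesterone- and glucocorticoid-induced transcription factor, missed the rule by 1 library, with 71.5 and 73.2 CPM against 72.0 and 49.1 with vehicle and 39.9 and 32.6 with progesterone. At the other edge of the rule, Ccne2 was counted as below with 31.7 and 28.2 CPM against 15.0, 17.8, 26.0 and 28.1.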

How the data were processed

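RNA-seq counts of 6 libraries (3 groups of 2) were used. Per the submitters' processing notes the authors used HISAT2, HTSeq and DESeq with genome build GRCm38.p6; the sources used here give no versions or strand settings. The deposited values are raw read counts per gene, not normalized. Of 19288 gene IDs, 19284 matched the GENCODE annotation of GRCm38, which gave symbols and coordinates. Counts were analysed in R 4.3.3 with edgeR 4.0.16 (filterByExpr, TMM, glmQLFit and glmQLFTest; 1 mean per group, contrast of the mean of vehicle and progesterone against transgenic, 3 residual degrees of freedom), and genes were called at an adjusted p under 0.05; the script was tested on simulated data. Alternatives were DESeq2 1.42.0, limma 3.58.1 voom, DESeq2 size factors, other filters, a 2-group fit, the replicate block and leaving out each library. CPM are TMM-scaled; limits from counts cover counting error only, since molecular identifiers were not used.

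The genes and the 47 gene lists (45 with at least 3 tested members) were chosen with earlier results of these data known. Named genes had to lie outside both transgenic libraries: 12 per direction by smallest p and 6 by largest difference (at least 5 CPM), 6 with a progesterone minus vehicle difference within 0.25, up to 3 per list, and all tested hormone receptors. A few genes that met this rule are not reported here. Genes named as just inside or outside a rule, as called by 1 tool or as examples of a list without a member outside were chosen after their values were seen. Promoter windows come from RefSeq (GRCm38.p6).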

Additional observations from a re-analysis of the deposited data

How the results depend on the processing

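The count of genes called between ovariectomized and transgenic tumours was 0 with edgeR under TMM or DESeq2 size factors, with limma-voom, in the 2-group fit, with at least 10 counts in every library of a group, and without each library in turn. It was 11 without a filter (4 higher and 7 lower) and 40 with DESeq2, which gave no adjusted p for 1586 genes; 9 of the 11 were among the 40, and the cause was not tested. For progesterone against vehicle the count was 0 in the main fit, 92 without a filter and 75 with DESeq2. With 1 library left out, genes above numbered 1193 to 3452 and genes below 1267 to 3576, as fewer libraries make the rule easier to meet; the highest counts of each were without transgenic library 1 (3452 and 3576), and without transgenic library 2 they were 2900 and 2625. The labels give all groups the replicate numbers 1 and 2. With the replicate block 0 genes were called (658 at an unadjusted p under 0.05), and 0 for progesterone against vehicle (640). Deviations of same-numbered libraries correlated by 0.08 (transgenic and vehicle), -0.17 (transgenic and progesterone) and -0.13 (vehicle and progesterone). Whether same-numbered libraries share more than a number is not given by the labels. Of the values of named genes under the alternatives, 33 passed the threshold (26 with DESeq2 and 7 without a filter). Leaving out 1 library changed the sign of the small differences of hormone receptors, such as Esr1, which ran from -0.63 to 1.93. The counts of list members outside under each alternative were added after seeing the data. With 1 library left out of a group, its lone library is assumed to vary like the other groups.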
